A study of Mus musculus with 20 samples.

Results

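The 38 genes described here encode subunits of the proteasome, the chamber-shaped protease that degrades proteins tagged with ubiquitin, and some of its assembly chaperones. They were chosen by name, as the mouse genes Psma1 to Psma7, Psmb1 to Psmb7, Psmc1 to Psmc6, Psmd1 to Psmd14 and Psme1 to Psme4, with pseudogenes left out. All 38 were present among the 38561 genes counted. The core particle stacks rings of alpha subunits (7 Psma genes) on rings of beta subunits (7 Psmb genes), and Psmb5, Psmb6 and Psmb7 carry its active sites. The regulatory particle caps the core: 6 ATPases (Psmc) unfold the substrate and drive it inward, and 14 genes named Psmd encode mostly the scaffold, ubiquitin receptors and the enzyme that removes ubiquitin. The 4 Psme genes encode alternative caps, of which Psme1 and Psme2 form a ring that interferons induce together with a set of exchangeable active sites, the immunoproteasome. Blood stem cells are known for low protein synthesis and for a need to keep protein quality under tight control, and the proteasome is one of the routes by which cells do so.

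The values are gene reads of 20 single bone marrow cells of C57BL/6J mice, each amplified and sequenced by Quartz-Seq, which copies the polyadenylated RNA of 1 cell by PCR. All cells were lineage-negative and cKit-positive by sorting: 9 were CD150-positive and CD48-negative, a gate that enriches blood stem cells (CD150+CD48-, cells named with A and B), and 11 were CD150-negative, with no CD48 gate in their label (CD150-, cells named with C and D). Genotype, treatment and age are not in the labels, which name no animal, so each sort counted as 1 sample and no test between the sorts was possible. The sources used here do not say what the letters mean, and each letter occurs in 1 sort, so letter and sort cannot be told apart. A CD150+CD48- cell had 660007 to 3722713 gene reads and a CD150- cell 996440 to 5776125. Each cell was therefore thinned to 660007 gene reads. Levels are CPM, read counts scaled to a common total of gene reads, 1 read in a cell being 1.52 CPM, and a fold compares the reads summed over each sort. Intervals are at 95% and exact, except that for the change in core over regulatory reads between the sorts, which is approximate. All cover counting error only, since PCR copies are not independent molecules and cells differ far more than that.

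The labels call all cells hematopoietic stem and progenitor cells, and the CD150- cells were not alike. In 7 of them (C6, C9, C10, C12, D4, D5 and D8) a list of 20 red cell precursor genes took 1.17% to 2.74% of gene reads and 20 genes of the G2/M phase of the cell cycle 0.358% to 0.750%. The other 4 (D3, D9, D11 and D12) had 0.0220% to 0.332% and 0.000152% to 0.0244%, and the CD150+CD48- cells 0.0609% to 0.330% and 0% to 0.152%. Of 15 stem cell genes, which took 0.138% to 0.729% of reads in CD150+CD48- cells, 0.260% to 0.571% in these 4 and 0.0132% to 0.0438% in the 7, all 15 had reads in CD150+CD48- cells, 14 in the 4 cells (Hoxb5 at 0) and 8 in the 7, where Hlf, Fgd5, Tek, Ly6a, Hoxb5, Esam and Mycn were at 0. Of the erythroid list, 16 genes had reads in CD150+CD48- cells, with Rhag, Cldn13 and Slc4a1 among those at 0, 19 in the 7 cells, with Slc4a1 at 0, and 11 in the 4, with Gata1, Ermap, Epor, Rhag, Tspo2, Cldn13, Fech and Aqp1 among those at 0. All CD150- cells named with C are among the 7, and the other 4 are all named with D, so letter and erythroid share cannot be fully told apart. The 7 cells, with more than 0.5% erythroid reads, are called erythroid-rich below. Their part in the differences between the sorts was not tested apart from the sort, and the sums and counts of the members are also given without them.

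Proteasome genes took a smaller share of the reads in CD150+CD48- cells, and the regulatory particle was lower by more than the core. The 14 core genes summed to 3214 CPM (95% interval 3168 to 3260) in CD150+CD48- cells and 4841 CPM (4791 to 4892) in CD150- cells, 1.51-fold lower (1.48 to 1.53). The 20 regulatory genes summed to 1774 CPM (1740 to 1808) and 4169 CPM (4122 to 4216), 2.35-fold lower (2.30 to 2.40). Reads of core genes outnumbered those of regulatory genes 1.81-fold (1.77 to 1.86) in CD150+CD48- cells and 1.16-fold (1.14 to 1.18) in CD150- cells, a ratio 1.56-fold higher (1.52 to 1.60) in the CD150+CD48- cells. These are ratios of reads and do not count particles.

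All 38 genes passed the filter, which asked for 10 thinned reads in all and for reads in 3 cells or more. At least 2-fold lower in CD150+CD48- cells were 15 of the 38, where 27.3% of the 11350 genes past the filter were, and none was at least 2-fold higher, where 21.8% of all genes were. Leaving out any 1 cell turned the direction of none of the 15, and genes at least 2-fold lower with such a stable direction were 25.3% of all. Any lower value was seen for 33 of the 38, against 52.6% of all genes. The median log2 fold (CD150+CD48- over CD150-, with 1 CPM added to each level) was -0.86 over the 38 genes and -0.09 over all genes. Single cells did decide on which side of 2-fold some others lay: Psma1 was at -1.16 on the log2 scale without B12, Psmc1 and Psmc6 at -1.29 without B9, Psmd1 at -1.13 without A3, Psmd10 at 1.12 without D8, Psme1 at 1.02 without D12 and Psme2 at 1.11 without D11. By particle, 3 of the 14 core genes (median -0.49), 11 of the 20 regulatory genes (median -1.29) and 1 of the 4 activator genes were at least 2-fold lower. For no gene of the 38 did the cells of the sorts separate without overlap, which 0.0352% of all genes did.

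The counts were different without the erythroid-rich cells. Leaving out these 7, 6 of the 38 genes were at least 2-fold lower, against 22.8% of all genes, and 7 were at least 2-fold higher, against 33.4%. Of the 33 genes with a lower value, 15 had a higher one without these cells (Psma1, Psma2, Psmb4, Psmb7, Psmc1, Psmc2, Psmc3, Psmc4, Psmd1, Psmd4, Psmd5, Psmd11, Psmd13, Psme3 and Psme4), which left 18 lower and 20 higher. All genes shifted too: 5968 of the 11350 were lower with all cells, and 4949 were lower and 6187 higher without these 7. How many of all genes turned was not counted. Without these 7 the median log2 fold was 0.059 over the 38 genes and 0.20 over all genes. The summed core gave a log2 fold of 0.057 in place of -0.59 and the summed regulatory particle -0.29 in place of -1.23. The log2 difference of core over regulatory reads was 0.34 in place of 0.64. Taken as the difference between the median log2 folds of the core and regulatory genes, it was 0.80 with all cells and -0.19 without these 7, so its direction turned on them by that measure.

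**Figure D1:**
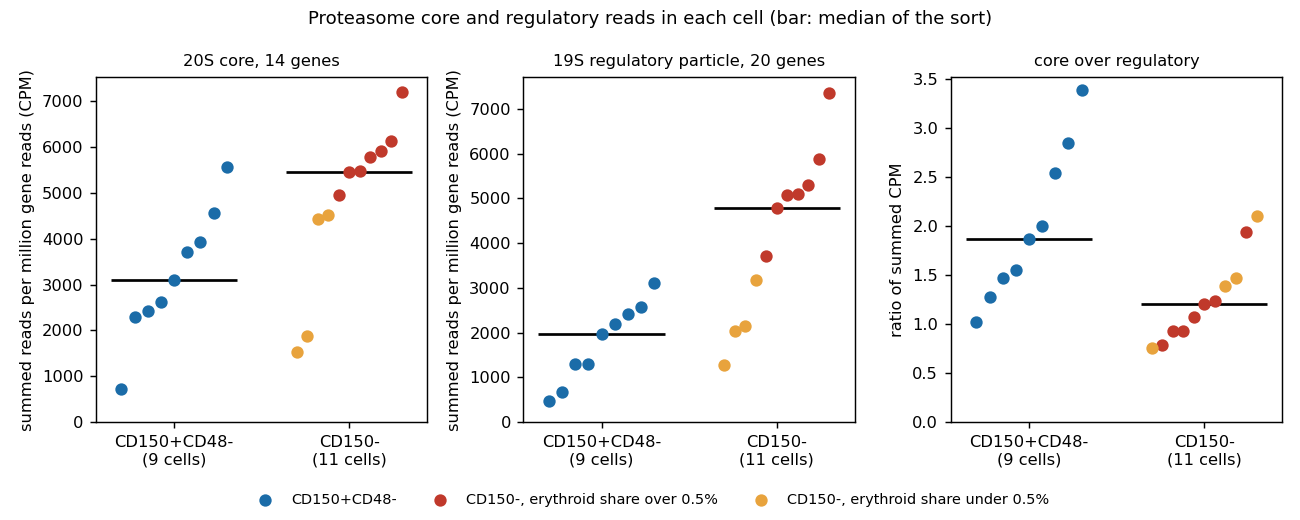
Summed level of the 14 core genes (left) and the 20 regulatory genes (middle) and their ratio (right) in each cell, in CPM, with a bar at the median of each sort. All 7 erythroid-rich CD150- cells (red) hold at least 3714 CPM of regulatory reads, and the 9 CD150+CD48- cells (blue) and the other 4 CD150- cells (orange) at most 3186 CPM.

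From cell to cell the core sum spanned 718 CPM (B4) to 5562 CPM (B3) among CD150+CD48- cells, with a median of 3097 CPM. The erythroid-rich cells held 4958 to 7197 CPM, with a median of 5788 CPM. The other 4 CD150- cells held 4420 (D3), 1539 (D9), 1889 (D11) and 4511 CPM (D12). Core values of the sorts thus overlapped, since B3 lay above D8, D4 and C12 of the erythroid-rich cells.

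The regulatory sum ran from 464 CPM (B4) to 3103 CPM (B9) in CD150+CD48- cells, with a median of 1961 CPM. In the erythroid-rich cells it ran from 3714 CPM (C6) to 7365 CPM (D5), with a median of 5092 CPM. In the other 4 CD150- cells it was 3186 (D3), 2036 (D9), 1286 (D11) and 2145 CPM (D12). Every erythroid-rich cell was therefore above every other cell, and the other 4 CD150- cells lay within or just above the span of the CD150+CD48- cells.

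The ratio of core to regulatory reads within a cell ran from 1.03 (A8) to 3.39 (B12) in CD150+CD48- cells, with a median of 1.87, and from 0.756 (D9) to 2.10 (D12) in CD150- cells, with a median of 1.20. It was above 2 in 4 CD150+CD48- cells (A3, A11, B3 and B12) and in 1 CD150- cell (D12), so the sorts overlapped. The 7 erythroid-rich cells spanned 0.786 (D5) to 1.94 (C6), nearly the whole span of their sort.

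Detection in single cells also differed between the particles. A core gene had a read in 88.9% of CD150+CD48- cells and 96.1% of CD150- cells on average, and a regulatory gene in 68.9% and 90.5%. Over all genes past the filter the averages were 51.2% and 61.8%. Of the 38 genes, 5 (Psma2, Psma7, Psmb4, Psmc6 and Psme1) were read in all 20 cells, where 5.38% of all genes were. A CD150+CD48- cell had reads of 22 (B4) to 38 (B11) of the 38 genes, with a median of 29. All 38 were read in 6 of the erythroid-rich cells and 37 in D8, while the other 4 CD150- cells had 28 to 37. The whole library varied too: 4770 to 8659 genes were read in CD150+CD48- cells, 5474 to 8894 in erythroid-rich cells and 5435 to 8783 in the other 4.

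**Figure D2:**
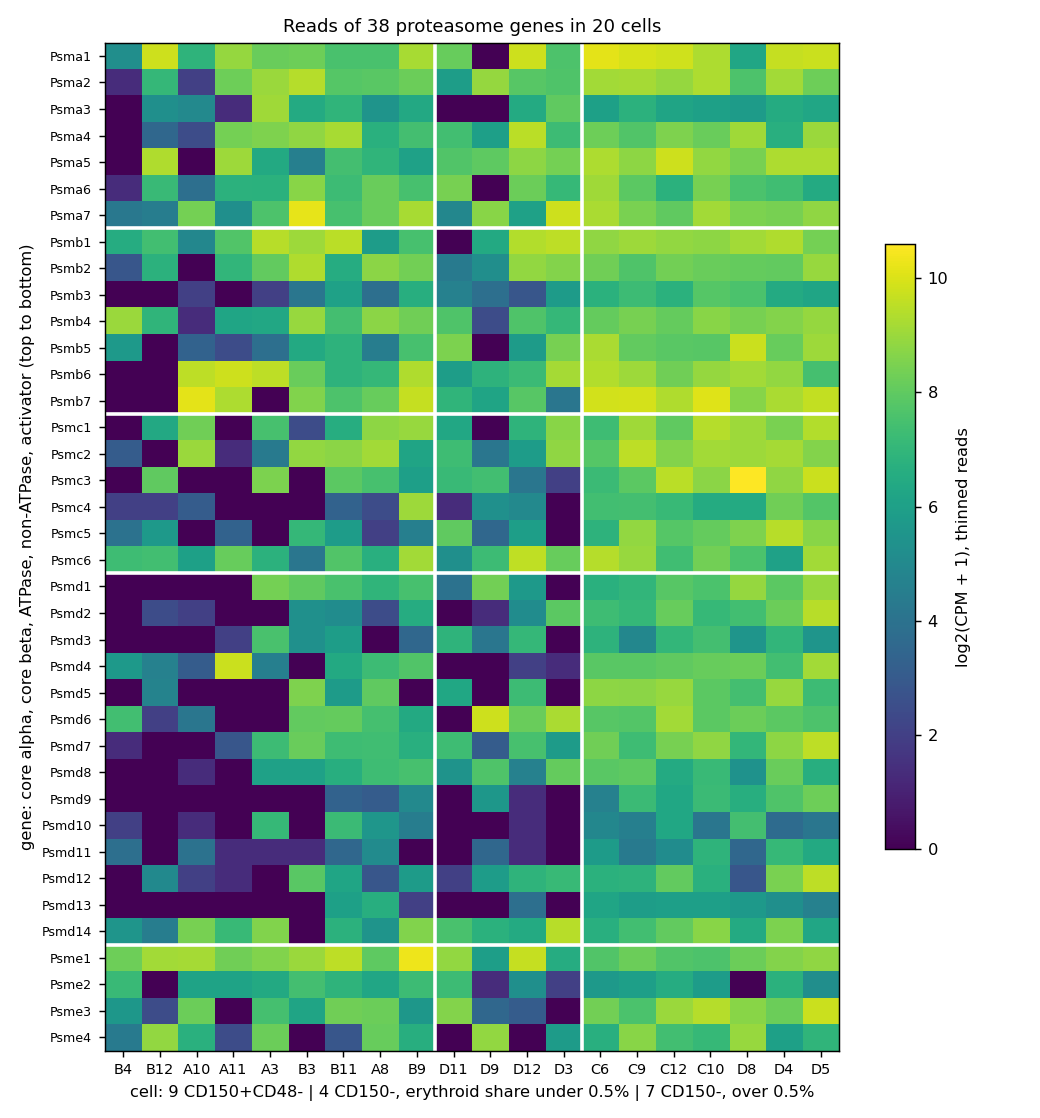
Level of each of the 38 genes (rows, by particle) in each of the 20 cells (columns) on a log2(CPM + 1) scale, from 0 (dark) to above 10 (yellow). Dark cells gather in the Psmd rows of the CD150+CD48- cells on the left, whereas the 7 erythroid-rich cells on the right hold reads of nearly every gene, Psme2 in D8 being the exception.

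A share of reads says nothing of the amount of RNA, so reads were also set against those of the ERCC spike-in RNA, which was in every lysis buffer at the same dilution. Core reads per ERCC read ranged from 0.0314 to 0.422 in CD150+CD48- cells, 0.752 to 1.82 in erythroid-rich cells and 0.0462 to 0.200 in the other 4. Regulatory reads per ERCC read ranged from 0.0200 to 0.274, 0.412 to 1.54 and 0.0302 to 0.0927. On this scale the erythroid-rich cells lay above all others for both sums, whereas by share of reads only the regulatory sum set them apart. All gene reads per ERCC read were 22.3 to 109 in CD150+CD48- cells, 109 to 302 in erythroid-rich cells and 12.7 to 43.8 in the other 4. Unaligned reads, which differed too, made up 8.17% to 80.2% of a CD150+CD48- library and 2.49% to 23.6% of a CD150- library, and their part was not tested.

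**Figure D3:**
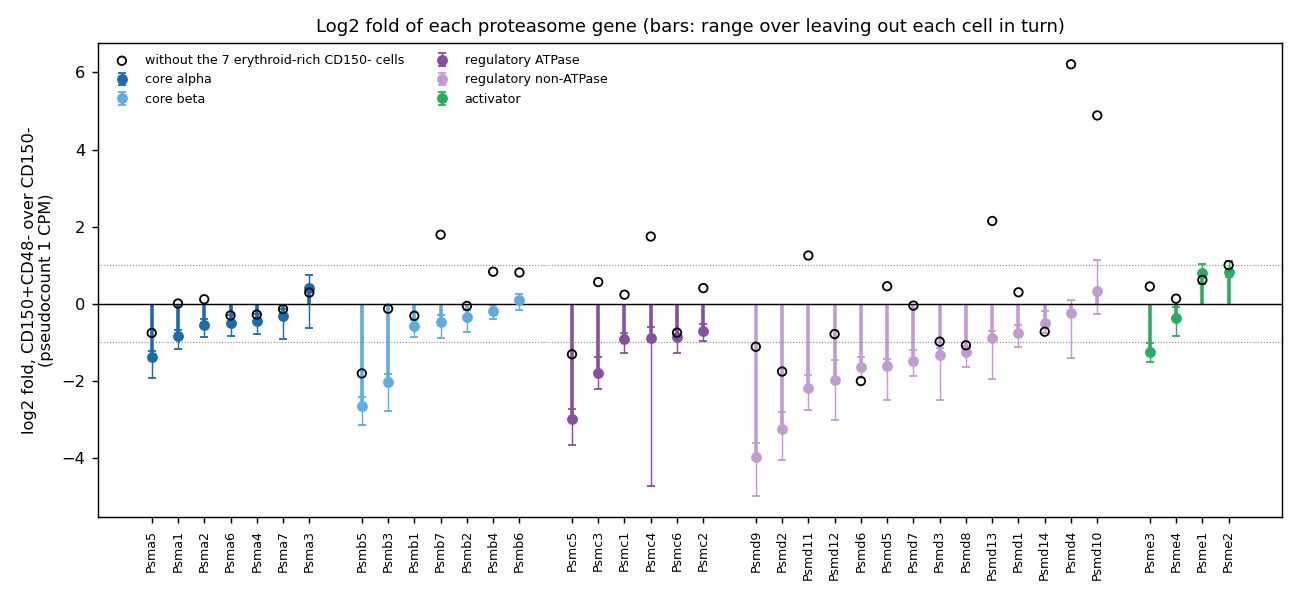
Log2 fold of each gene, CD150+CD48- over CD150- cells, with stems from 0 and thin bars for the range when each cell is left out in turn, dotted lines at 2-fold, and open circles for the value without the 7 erythroid-rich cells. The filled points of 33 genes lie below 0, from -3.97 (Psmd9), and many open circles lie nearer to 0 or above it, up to 6.21 (Psmd4).

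Among the alpha subunits, whose rings gate entry to the core, 1 of 7 genes was at least 2-fold lower, against 27.3% of all genes. The alpha sum was 1.56-fold lower (1.52 to 1.60). The sum's log2 fold was -0.64, and -0.17 without the erythroid-rich cells. That gene, Psma5 (ENSMUSG00000068749, chr3:108256926-108279974), had 183 against 478 CPM, 2.62-fold lower (2.44 to 2.81). It ran from 0 to 650 CPM in CD150+CD48- cells (median 86.4), 347 to 871 CPM in erythroid-rich cells, and stood at 332, 247, 212 and 448 CPM in D3, D9, D11 and D12. It was at 0 in A10 and B4 and high in B12 and A11, so the sorts overlapped, and its log2 fold of -1.38 became -0.76 without the erythroid-rich cells. Psma1, with the next lowest fold, had 343 against 616 CPM (log2 fold -0.84, and 0.0035 without the erythroid-rich cells).

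At the other end, Psma7 had 315 against 393 CPM (-0.32) and reached 1165 CPM in B3, without which the log2 fold was -0.91. Psma3 had 105 against 79.8 CPM (0.40) and owed its sign to A3 with 541 CPM, without which it was -0.64. The upper end of the alpha list thus turned on single cells.

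The beta subunits held the sharpest contrast within the core. Their sum was 1.45-fold lower (1.42 to 1.49) and 2 of 7 were at least 2-fold lower, against 27.3% of all genes. The direction of the sum turned when the erythroid-rich cells were left out, with 1618 CPM in CD150+CD48- cells against 1289 CPM in the other 4 CD150- cells (log2 fold 0.33 in place of -0.54). Psmb5 (ENSMUSG00000022193, chr14:54614119-54618022), the chymotrypsin-like active site, had 53.9 against 344 CPM, 6.38-fold lower (5.68 to 7.19). Its levels were 0 to 183 CPM in CD150+CD48- cells (median 21.2), 230 to 868 CPM in erythroid-rich cells, and 345 (D3), 0 (D9), 365 (D11) and 54.5 CPM (D12) in the other 4. All erythroid-rich cells were above all CD150+CD48- cells, and the share of all genes for which this held was not counted. The log2 fold was -2.65, and -1.81 without the erythroid-rich cells.

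The other active sites did not show that gap. Psmb6 (caspase-like) had 394 against 371 CPM (log2 fold 0.09) and Psmb7 (trypsin-like) 384 against 533 CPM (-0.47). Both were at 0 in B4 and B12, Psmb7 in A3 as well, and both were high in other CD150+CD48- cells, up to 879 CPM (Psmb6, A11) and 1153 CPM (Psmb7, A10). In erythroid-rich cells Psmb7 spanned 411 to 1065 CPM and in the other 4 CD150- cells 16.7 to 230 CPM, so that its log2 fold was 1.79 without the former.

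The promoters of Psmb5 and Psmb6 are shown because the genes had unlike folds while both hold the motif TGACNNNGC, the antioxidant response element, to which Nfe2l1 and Nfe2l2, known regulators of proteasome genes, bind. The sequences are RefSeq's (GRCm38.p6, 250 bases before the transcript start and 50 after), 5′ to 3′ on the strand of the gene, Psmb6 at chr11:70525107-70525406 (+ strand) and Psmb5 at chr14:54617946-54618245 (- strand), with the motif in capitals.
Psmb6: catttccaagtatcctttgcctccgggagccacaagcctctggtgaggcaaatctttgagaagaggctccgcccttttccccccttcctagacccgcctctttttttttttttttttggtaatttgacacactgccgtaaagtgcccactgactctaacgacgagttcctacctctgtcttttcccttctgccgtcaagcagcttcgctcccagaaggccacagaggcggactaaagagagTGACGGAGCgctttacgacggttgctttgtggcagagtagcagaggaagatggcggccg
Psmb5: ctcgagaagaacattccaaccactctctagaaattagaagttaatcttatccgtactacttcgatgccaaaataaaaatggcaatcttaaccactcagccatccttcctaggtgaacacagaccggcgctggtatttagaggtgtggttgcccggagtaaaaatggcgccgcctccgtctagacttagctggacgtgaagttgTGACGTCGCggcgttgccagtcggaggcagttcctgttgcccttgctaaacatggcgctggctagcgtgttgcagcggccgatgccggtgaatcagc
The motif lies at bases 242 to 250 in Psmb6 and 204 to 212 in Psmb5. RefSeq promoters matched 32 of the 38 genes, and the motif, searched on both strands, was in 6 of them (18.8%: Psmb5, Psmb6, Psmc6, Psmd9, Psmd12 and Psme4), against 14.0% of 27025 genes. CCAAT, likewise on both strands, was in 12 of the 32 (37.5%) and in 41.1% of all. A match is a description and not a bound site.

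Of the beta subunits without an active site, Psmb3 had 22.4 against 94.8 CPM, 4.23-fold lower (3.51 to 5.14). It ran from 0 to 98.5 CPM in CD150+CD48- cells (median 3.03), 74.2 to 220 CPM in erythroid-rich cells and 6.06 to 54.5 CPM in the other 4. Only B9 and B11 among the CD150+CD48- cells held more than 16.7 CPM, and without B9 the log2 fold was -2.79 in place of -2.03. It was -0.13 without the erythroid-rich cells. Psmb4, with 245 against 279 CPM (-0.19, and 0.83 without the erythroid-rich cells), had the second highest fold of the beta genes.

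Among the ATPases, 6 of 6 had a lower level in CD150+CD48- cells, 2 of them at least 2-fold. Of all genes 52.6% were lower and 27.3% at least 2-fold lower. The ATPase sum was 2.30-fold lower (2.22 to 2.37). Leaving out the erythroid-rich cells, the sums were close, 813 CPM against 822 CPM in the other 4 CD150- cells (log2 fold -0.016 in place of -1.20). Of the 6 genes 4 were then higher, as were 6187 of all 11350 genes. Psmc5 (ENSMUSG00000020708, chr11:106256154-106263120) had 32.5 against 264 CPM, 8.13-fold lower (7.01 to 9.47). Its levels were 0 to 133 CPM in CD150+CD48- cells (median 15.2), 115 to 702 CPM in erythroid-rich cells, and 0 (D3), 10.6 (D9), 258 (D11) and 60.6 CPM (D12) in the other 4. Of the CD150+CD48- cells only B3 reached the level of the erythroid-rich cells, and without B3 the log2 fold was -3.67 in place of -2.98. Without the erythroid-rich cells it was -1.31.

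Psmc3 had 123 against 431 CPM, 3.51-fold lower (3.24 to 3.81). It was read in 5 of 9 CD150+CD48- cells, up to 364 CPM, and in all 11 CD150- cells, from 3.03 CPM (D3) to 1547 CPM (D8). The log2 fold of -1.80 became 0.56 without the erythroid-rich cells. At the upper end, Psmc2 had 230 against 374 CPM (-0.70, and 0.40 without the erythroid-rich cells) and Psmc6 185 against 339 CPM (-0.87, and -0.75). Psmc4 stood apart in its spread: B9 held 530 CPM and no other CD150+CD48- cell more than 9.09 CPM, so its log2 fold of -0.88 was -4.72 without B9. Its direction turned without the erythroid-rich cells, to 1.74.

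The Psmd genes included the 2 lowest folds of the 38, and their sum was 2.39-fold lower (2.32 to 2.47). At least 2-fold lower were 9 of 14, against 27.3% of all genes, and 13 of 14 were lower, against 52.6%. The sum's log2 fold was -1.26, and -0.48 without the erythroid-rich cells. Without those cells 4 of the 14 were at least 2-fold lower, against 22.8% of all genes, and 4 at least 2-fold higher, against 33.4%. Psmd2 (ENSMUSG00000006998, chr16:20651652-20663414), a large scaffold protein of the base, had 19.9 against 197 CPM, 9.90-fold lower (8.20 to 12.1). It ran from 0 to 92.4 CPM in CD150+CD48- cells (median 4.55), 133 to 708 CPM in erythroid-rich cells, and stood at 242 (D3), 1.52 (D9), 0 (D11) and 34.8 CPM (D12) in the other 4. All erythroid-rich cells lay above all CD150+CD48- cells, which was not counted over all genes. The log2 fold of -3.24 was -4.07 without B9 and -1.76 without the erythroid-rich cells.

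Psmd5, Psmd9 and Psmd10 encode chaperones that help to assemble the base and leave the finished particle, and they did not behave alike. The sums and counts of regulatory genes, chosen by name, include them. Psmd9 (ENSMUSG00000029440, chr5:123169413-123250131) had 5.22 against 96.4 CPM, 18.5-fold lower (12.9 to 27.4), the lowest fold of the 38 genes. It was read in 3 CD150+CD48- cells (A8 7.58, B9 30.3 and B11 9.09 CPM), in all erythroid-rich cells (24.2 to 309 CPM), and in D9 (48.5 CPM) and D12 (1.52 CPM). Its log2 fold of -3.97 was -4.98 without B9 and -1.12 without the erythroid-rich cells.

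Psmd5 had 79.1 against 243 CPM (log2 fold -1.61) and was read in 4 of 9 CD150+CD48- cells. The log2 fold was -2.49 without B3, its highest CD150+CD48- cell, and 0.45 without the erythroid-rich cells. Psmd10, with 39.7 against 31.7 CPM (0.32), had the highest fold of the Psmd genes. Without the erythroid-rich cells it was 4.88, as D3, D9 and D11 held no read and D12 held 1.52 CPM, 1 read.

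A further 6 genes in this class were at least 2-fold lower, and they encode subunits of the lid, the part that holds the deubiquitinase. Psmd11 had 8.59 against 42.8 CPM (log2 fold -2.19), Psmd12 45.6 against 182 CPM (-1.97) and Psmd6 109 against 341 CPM (-1.63). Psmd7, the partner of the deubiquitinase, had 97.0 against 272 CPM (-1.48), Psmd3 33 against 83.9 CPM (-1.32) and Psmd8 63.5 against 154 CPM (-1.26). All of them had reads in every erythroid-rich cell. Psmd12 was -3.02 without B3 and Psmd3 -2.50 without A3, the cells that held most of their CD150+CD48- reads.

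Without the erythroid-rich cells these genes parted. Psmd6 (-2.01) and Psmd8 (-1.08) were still at least 2-fold lower, Psmd3 (-0.98), Psmd12 (-0.79) and Psmd7 (-0.05) were not, and Psmd11 was higher (1.25). The deubiquitinase itself, Psmd14, had 164 against 234 CPM (-0.51). The ubiquitin receptor Psmd4 had 157 against 185 CPM (-0.23), with 861 CPM in A11 and 0 to 209 CPM in the other CD150+CD48- cells, and was at -1.40 without A11. In CD150- cells Psmd4 was at 165 to 565 CPM when erythroid-rich and at 0 to 3.03 CPM otherwise, which gave the log2 fold of 6.21 without the former.

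The activators went both ways. The 4 genes summed to 929 against 894 CPM, 1.04-fold higher in CD150+CD48- cells (1.00 to 1.08), a log2 fold of 0.056, and of 0.54 without the erythroid-rich cells. The interferon-inducible pair Psme1 and Psme2, both on chromosome 14 (chr14:55578123-55581529 and chr14:55587441-55591113), summed to 645 against 372 CPM, 1.73-fold higher in CD150+CD48- cells (1.65 to 1.82). Psme1 (log2 fold 0.78) was read in all 20 cells: 252 to 1285 CPM in CD150+CD48- cells (median 509), 198 to 453 CPM in erythroid-rich cells, and 93.9 (D3), 60.6 (D9), 465 (D11) and 805 CPM (D12) in the other 4. B9 held the highest level, and the ranges overlapped. Psme2 (0.83) had 98.8 against 55.1 CPM and was at 0 in B12 and D8.

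The pair's log2 fold of 0.79 was 0.67 without the erythroid-rich cells and 0.55 without B9. Relative to ERCC reads its log2 fold was -0.13, so the direction held for the share of reads and not for reads per spike-in. Psme3, which forms a nuclear cap, had 140 against 337 CPM, 2.41-fold lower (2.22 to 2.61), and its log2 fold of -1.26 was 0.45 without the erythroid-rich cells. Psme4, another nuclear activator, had 143 against 184 CPM (-0.36, and 0.13 without the erythroid-rich cells).

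The Psme1 promoter is shown because it holds GAAA, any 2 bases and GAAA, the core of the interferon-stimulated response element, and Psme1 had the highest level per kilobase of the activators. The search was added after the values were seen. The sequence (RefSeq, GRCm38.p6, chr14:55578244-55578543, + strand, 5′ to 3′) has the match in capitals at bases 260 to 269, after the transcript start, and the motif itself reads on the opposite strand.
Psme1: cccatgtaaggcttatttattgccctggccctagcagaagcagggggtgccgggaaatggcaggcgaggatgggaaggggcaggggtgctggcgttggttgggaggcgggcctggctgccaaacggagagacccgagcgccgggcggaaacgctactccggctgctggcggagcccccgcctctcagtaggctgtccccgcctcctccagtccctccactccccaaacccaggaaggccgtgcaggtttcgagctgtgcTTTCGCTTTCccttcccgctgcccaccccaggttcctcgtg
The motif was in 4 of the 32 matched promoters (12.5%: Psmb3, Psmd4, Psmd9 and Psme1) and in 3.99% of all genes. None of the promoters of Psmb8, Psmb9 and Psmb10 held it. The genes that did hold it had log2 folds from -3.97 (Psmd9) to 0.78 (Psme1).

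Genes that bear on the proteasome but are outside the 38 were counted from lists. The immunoproteasome subunits Psmb8, Psmb9 and Psmb10, which replace Psmb5, Psmb6 and Psmb7 in newly built cores, summed to 928 against 446 CPM, 2.08-fold higher in CD150+CD48- cells (1.99 to 2.17). The sum was 0 (D8) to 261 CPM (C6) in erythroid-rich cells, 639 to 1406 CPM in the other 4 CD150- cells and 365 (B12) to 2223 CPM (B4) in CD150+CD48- cells. Without the erythroid-rich cells the log2 fold of 1.06 became -0.22, and without B4 it was 0.78. These subunits made up 12.2% to 75.6% of core and immunoproteasome reads in CD150+CD48- cells, with a median of 16.3%, 0% to 3.49% in erythroid-rich cells and 18.5% to 44.8% in the other 4 CD150- cells, with a median of 24.7%. B4, with 75.6%, also had the fewest core reads. Its library had 730221 gene reads, 46.3% of reads unaligned and the fewest genes read of all cells (4770). B4 also had the highest G2/M share of its sort (0.152%), and the part of these traits was not tested.

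**Figure D4:**
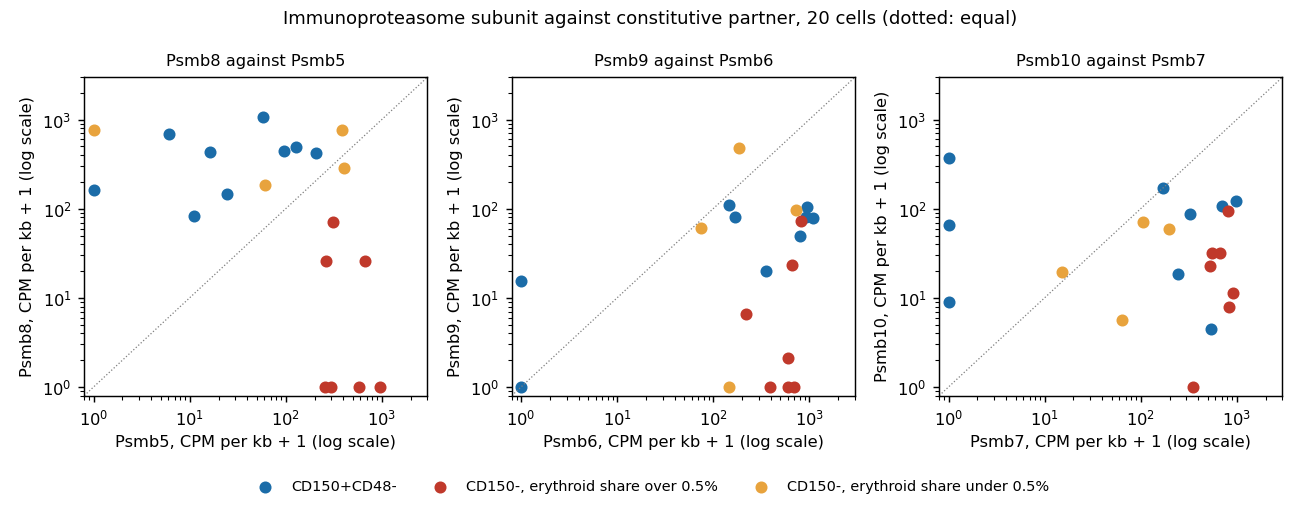
Level per kilobase of exons of each immunoproteasome subunit (y axis) against the constitutive subunit it replaces (x axis) in 20 cells, log scales with 1 added. For Psmb8 and Psmb5 (left) all 9 CD150+CD48- cells (blue) lie above the dotted line of equality and all 7 erythroid-rich CD150- cells (red) below it.

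Levels of the exchangeable partners were compared per kilobase of exons. Psmb8 was above Psmb5 in 9 of 9 CD150+CD48- cells, 0 of 7 erythroid-rich cells and 3 of the other 4 CD150- cells, D11 being the exception. By reads alone D11 was no exception, with 467 CPM of Psmb8 and 365 CPM of Psmb5. Psmb5 has a near-identical copy and overlaps another gene, so its level is uncertain. The mean levels were 436 (Psmb8) and 59.9 CPM per kb (Psmb5) in CD150+CD48- cells, 17.3 and 479 CPM per kb in erythroid-rich cells, and 501 and 213 CPM per kb in the other 4. Psmb9 was above Psmb6 in 1 CD150+CD48- cell (B12) and 1 CD150- cell (D12), and Psmb10 above Psmb7 in 4 (A3, B4, B11 and B12) and 1 (D3). Of the list, Psmb10 had the highest fold, with 138 against 41.3 CPM (log2 fold 1.72), and Psmb9 the lowest, with 80.1 against 90.1 CPM (-0.17, and 1.18 without D12).

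Counts of the other lists are read against 27.3% of all genes at least 2-fold lower and 21.8% higher. Of 5 core assembly genes 1 was at least 2-fold lower: Psmg2, with 122 against 250 CPM (-1.04). Its log2 fold was -1.96 without B3 and -0.86 without C10. Pomp, the maturation factor of the core, had the highest fold of these, with 239 against 171 CPM (0.48). Of 13 associated factors 3 were at least 2-fold lower (Adrm1, Psmf1 and Ubqln4) and 1 higher (Ubqln2), from Ubqln4 (14.5 against 56.6 CPM, -1.90) to Ubqln2 (188 against 87.6 CPM, 1.09), both shuttles that bring ubiquitinated proteins to the proteasome. Neither list held a larger share of lower or higher genes than all genes did, and with 5 and 13 genes both lists are short. Without B9 Ubqln4 was at -2.75, without D4 at -1.23, and Ubqln2 was at 0.72 without A8.

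Of 6 genes that control proteasome gene expression, 5 passed the filter, 3 were at least 2-fold lower (Nfe2l1, Nfe2l2 and Vcp) and 1 was higher (Ddi2). Of all genes 27.3% were at least 2-fold lower and 21.8% higher. Like the core assembly list, this list is too short for its share to be read as a result. Nfe2l2, a transcription factor of the oxidative stress response, had 45.3 against 284 CPM, 6.27-fold lower (5.52 to 7.15). It ran from 0 to 92.4 CPM in CD150+CD48- cells, 48.5 to 352 CPM in erythroid-rich cells and 397 to 585 CPM in the other 4, which were all above the CD150+CD48- cells. How many of all genes separated these 4 cells in this way was not counted. Ddi2, the protease that activates the related factor Nfe2l1, had 115 against 44.1 CPM (1.37), with 945 CPM in B12, and its log2 fold was -1.87 without B12. Nfe2l3 had no read in any cell.

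Levels were also compared between genes per kilobase of exons. The median over core genes was 236 CPM per kb across all 20 cells, against 58.5 CPM per kb over regulatory genes and 85.0 over activators. Psmb6 (477 CPM per kb), Psmb7 (402) and Psma1 (398) had the highest levels, and Psmd11 (9.25), Psmd13 (13.8) and Psmd9 (21.3) the lowest. The core median was 171 CPM per kb in CD150+CD48- cells and 297 in CD150- cells, and the regulatory median 33.7 and 74.8. Psmd13, another lid gene, was read in 3 of 9 CD150+CD48- cells and 8 of 11 CD150- cells, with a log2 fold of -0.88, of -1.94 without A8 and of 2.15 without the erythroid-rich cells.

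Core genes had fewer exon bases than regulatory ones, with medians of 1172.5 and 2016.5 bases, counted over all annotated transcripts of a gene. Over protein-coding genes past the filter the share at least 2-fold lower was 27.7% for exon lengths up to 1500 bases, 31.2% between 1500 and 3000 and 27.8% above 3000 bases, with median log2 folds of -0.12, -0.16 and -0.05.

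Some members share sequence with other genes. Near-identical copies elsewhere in the genome (at least 95% identity) were found for 8 members: Psma4, Psma5, Psmb3, Psmb5, Psmc1, Psmd2, Psmd11 and Psme2, whose reads may be split or set aside as multiply aligned. Exons of 9 members overlap another gene, among them Psmb7 with Nek6 over 34.9% of its exon bases, and the sources used here do not say whether counting used strand. Values of these genes are therefore uncertain. Without them the log2 fold was -0.39 in place of -0.59 for the summed core and -1.16 for the summed regulatory particle.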

How the data were processed

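Single cells were lysed in buffer with ERCC spike-in RNA and amplified by Quartz-Seq, per the labels' protocols. The deposited files hold whole-number counts of reads per Ensembl gene, not normalized. HTSeq, R 3.0.2 and GRCm38 are named in the submitters' processing notes. No source used here gives the aligner, the annotation release or the strand setting.

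Library sizes left out the 5 HTSeq summary rows and the 51 ERCC rows. Gene reads were thinned, without replacement, to 660007 in every cell, the thinned reads were summed by sort and scaled to CPM, and 1 CPM was added before taking log2 folds, so that differences of low genes are understated. The filter asked for 10 thinned reads in all and reads in 3 cells or more, and 11350 genes passed. Each GEO sample is 1 cell and each sort counted as 1 sample, so no p-value was computed. Intervals are exact Poisson (levels) and exact conditional binomial (folds and ratios) at 95%. The interval of the change in core over regulatory reads between the sorts is approximate and symmetric on the log2 scale. All intervals cover counting error only.

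The members, the gene lists and the tests were chosen with earlier results of these data known. Named with values were, in each class of subunits, the genes with the 2 highest and 2 lowest log2 folds, genes at least 2-fold apart whose direction held whichever cell was left out, the 3 highest and 3 lowest per kilobase, any read in fewer than 10 cells, and the highest and lowest fold of each related list. Others named in the text were chosen after their values were seen. Exon lengths, coordinates and overlaps are from GENCODE M21 (GRCm38), near-identical copies from blastn 2.17.0 (at least 95% identity over at least 30% of the transcript), and promoters from RefSeq. An exon length joins the exons of all annotated transcripts of a gene, so it can exceed that of any single transcript, and levels per kilobase rest on it. Symbols were matched for 36639 of the 38561 identifiers. A marker gene is not reported here. The steps were tested on simulated data. Alternatives were unthinned reads, a mean over cells of log2(CPM + 1), scaling by edgeR 4.0.16 (TMM), DESeq2 1.42.0 (size factors) and ERCC reads, other pseudocounts (0.1 and 5 CPM) and filters, another random seed, leaving out each cell, the letters apart, and cells without a high erythroid share. Python 3.11.15 and R 4.3.3 were used.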

Additional observations from a re-analysis of the deposited data

Results flagged for a closer look

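Single CD150+CD48- cells stood far from the other 8 for 12 member genes and the summed immunoproteasome genes, out of 43 values examined (the gap to the nearest cell took more of the range of the 9 cells than Dixon's 95% limit). Chance flags about 1 in 20 such groups when values are spread normally, and reads of single cells are not. The CD150- cells were not examined in this way, so these flags do not compare the sorts. B9 held 530 CPM of Psmc4 (next cell 9.09), 558 CPM of Psmc6 (280.3), 92.4 CPM of Psmd2 (39.4), 30.3 CPM of Psmd9 (9.09) and 1285 CPM of Psme1 (735). B3 held 1165 CPM of Psma7 (594), 133 CPM of Psmc5 (57.6) and 238 CPM of Psmd12 (74.2). A3 held 541 CPM of Psma3 (121) and 185 CPM of Psmd3 (59.1). A11 held 861 CPM of Psmd4 (209), A8 33.3 CPM of Psmd11 (15.2) and B4 2223 CPM of immunoproteasome genes (1239).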

How the results depend on the processing

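Unthinned reads, DESeq2 size factors, the other pseudocounts and filters and another thinning seed moved none of the particle sums, their ratio or the counts of members by more than counting error or 1.5 times. Every C cell was erythroid-rich, and every CD150- cell that was not was a D cell. The split by letter therefore overlaps the split by erythroid share, and the settings below that use them are not separate checks. The summed core log2 fold of -0.59 was -0.64 as a mean over cells on the log2 scale, -0.55 with TMM, -1.91 per ERCC read, -0.96 in letters A and C, -0.33 in B and D, 0.057 without the erythroid-rich cells, -0.39 without members with copies or overlaps, and -0.73 to -0.46 leaving out 1 cell. In the same order the summed regulatory log2 fold of -1.23 was -1.29, -1.19, -2.54, -1.39, -1.14, -0.29, -1.16 and -1.37 to -1.11. The core against regulatory difference of 0.64 was 0.43 in A and C, 0.81 in B and D, 0.34 without the erythroid-rich cells, 0.76 without members with copies or overlaps, 0.80 by medians over members, -0.19 by medians without the erythroid-rich cells, and 0.55 to 0.76 leaving out 1 cell. Psme1 and Psme2 (0.79) gave 0.96 on the log2 scale, -0.13 per ERCC read, 0.62 in A and C, 0.94 in B and D, 0.67 without the erythroid-rich cells and 0.55 to 0.99 leaving out 1 cell. The immunoproteasome sum (1.06) gave 2.65, 1.51, 2.85, 0.77 and -0.22 in that order, and 0.78 to 1.41 leaving out 1 cell. Members at least 2-fold lower (15) numbered 26 on the log2 scale, where 36.4% of all genes were, 36 per ERCC read (47.9%), 23 in A and C (36.5%), 6 without the erythroid-rich cells (22.8%), 8 of the 24 members without copies or overlaps (27.2%), against 27.3% as reported, and 15 to 18 leaving out 1 cell. Those at least 2-fold higher (0, against 21.8% of all genes) numbered 7 without the erythroid-rich cells, where 33.4% of all genes were. They numbered 1 on the log2 scale and in B and D, and 0 to 1 leaving out 1 cell (D8, D11 or D12). For these last settings the share of all genes at least 2-fold higher was not counted. Without the erythroid-rich cells 15 of the 33 lower members turned higher, among them 4 that had been at least 2-fold lower: Psmc3 (0.56), Psmd5 (0.45), Psmd11 (1.25) and Psme3 (0.45). Of all 11350 genes, 5968 were lower with all cells and 4949 without the erythroid-rich cells, and turns were not counted over all genes. The median of all genes was -0.92 per ERCC read, -0.48 on the log2 scale and 0.20 without the erythroid-rich cells, against -0.09. Apart from these constructions the causes were not tested. No paired analysis was possible because the results come from no test. Numbers in the titles recur across letters (A10 and C10, for example), and the labels do not say that a number marks a shared animal, batch or day.

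With 1 sample per sort, no animal named and 9 and 11 cells, spread between animals is unknown. At 1.52 CPM per read in a cell, a gene read in no cell of a sort is not shown to be absent, and a fold against a few reads, such as Psmd4 or Psmd10 without the erythroid-rich cells, rests on the pseudocount.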

Other observations

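Psma8, the alpha subunit of spermatoproteasomes in the testis, had 479 CPM in the CD150+CD48- cell B12, 72.7 CPM in C6, 30.3 CPM in C12 and no read in the other 17 cells. Psmb11, the beta subunit of thymic epithelium, had no read in any of the 20 cells. B12 also held 945 CPM of Ddi2 and had the highest ratio of core to regulatory reads, 3.39. These values were picked out after they were seen.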
